A study of Mus musculus with 576 samples.

Results

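The endoplasmic reticulum (ER) chaperone and secretory genes are 34 genes, listed by symbol and found by exact match of that symbol in a deposited table of 49466 genes. Each of the 34 was present once. They were measured by RNA sequencing of polyadenylated RNA in single cells from E14.5 mouse fetal liver (C57/Bl6J strain). The liver had been depleted of cells carrying CD41, CD16/32, Sca-1, Ter119, CD11b, Ly-6G, CD45R or CD3e. It was then sorted on CD117, CD71 and CD24 to enrich burst forming unit-erythroid cells (BFU-E), early progenitors of red cells. All groups were cultured with 3 factors, namely 2 U/mL of erythropoietin, 100 ng/mL of stem cell factor and 40 ng/mL of insulin-like growth factor 1. The control groups had these factors alone for 24, 48 or 72 hours (days 1, 2 and 3), and the dexamethasone groups also had this synthetic glucocorticoid at 100 nM for the same times. Each of the 6 groups was 1 plate of 96 wells. Plate, day and treatment therefore cannot be told apart from any handling of a single plate, and the labels do not say whether plates came from separate animals or cultures.

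Secreted and membrane proteins enter the ER through a channel in its membrane, lose their signal peptide to a peptidase, and fold with the help of chaperones and of enzymes that form disulfide bonds or turn proline bonds. When unfolded protein builds up, the sensors IRE1 (the product of Ern1), ATF6 and PERK start the unfolded protein response, in which the factor XBP1 and the cleaved form of ATF6 raise many of the genes described here. As they mature, cells of the red cell lineage come to make mostly cytosolic hemoglobin and lose their ER.

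After a filter on wells, 563 of 575 matched wells were kept, 92 to 96 per plate, and their summed counts ran from 88178493 to 116623968 per plate. The red cell markers Gata1, Klf1 and Epor were present in every plate, at 264 to 569, 203 to 600 and 151 to 260 CPM (a gene's count as a share of the plate's total, scaled to 1e+06). Summed CPM of 12 red cell lineage markers was 3629, 18920 and 30940 in the control plates of the 3 days, against 2435, 3915 and 11280 in the dexamethasone plates. Markers of other cell types were uneven between plates. Cells with at least 10 CPM of at least 2 of 12 neutrophil and monocyte markers numbered 15, 0 and 9 in control and 10, 4 and 10 with dexamethasone, and the summed CPM of that list was lowest on control day 2, at 2.8, and highest on control day 3, at 2046. Mast cell markers summed to 838 CPM on dexamethasone day 2, where Hdc was at 692 CPM and Cpa3 at 107 CPM. On the other plates they summed to at most 56.1 CPM. Markers of B and plasma cells, a lineage with an expanded ER, summed to 28.1 to 78.1 CPM with 4 to 8 of 8 at a count. Hepatocyte markers summed to 0.795 to 64.1 CPM, with Ttr at 0 counts in all 6 plates, and the macrophage genes C1qa, C1qb and C1qc were at 0 in all 6. Megakaryocyte markers, 9 or 10 of 10 at a count on every plate, were higher with dexamethasone on each day. Their sums by day were 399, 129.5 and 109.8 CPM without the drug, against 447.4, 529.8 and 313 CPM with it. The same order held for 4 early progenitor markers, at 541.5, 185.9 and 101.7 CPM against 687, 1037 and 435.2 CPM. Fewer cells of a type and less RNA per cell cannot be told apart in a plate's sum.

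Many ER chaperone genes carry an ER stress element (ERSE) just upstream of their start, and this sequence was looked for first. Promoter windows from RefSeq (build GRCm38.p6), from 250 bases before to 50 after a gene's start, were found for 27 of the 34 members, the others being Manf, Hyou1, Atf6, Ssr2, Spcs3, Sec61a1 and Sec11c. The motif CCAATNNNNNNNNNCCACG, searched on both strands, matched the windows of 8 of these 27 (29.6%), against 37 of 27025 genes with a window in the table (0.137%). The matches are shown because promoter sequence was not used to list the members, but most members with a window held none. Since the element is known from ER chaperone genes, its larger share here is a description and not a test. They are written in the direction of the motif, with its fixed bases in capitals, and the position is that of the match's leftmost base relative to the gene's start on the gene's own strand.
Hspa5 at -65: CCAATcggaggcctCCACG
Hsp90b1 at -212: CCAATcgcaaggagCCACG
Hsp90b1 at -107: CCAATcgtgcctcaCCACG
Calr at -162: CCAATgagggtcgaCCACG
Canx at -145: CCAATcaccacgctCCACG
Pdia6 at -98: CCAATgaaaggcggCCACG
Dnajc3 at -105: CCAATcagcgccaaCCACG
Creld2 at -126: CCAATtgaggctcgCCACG
Syvn1 at -44: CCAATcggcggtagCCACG

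A shorter form, ERSE-II (ATTGGNCCACG), matched another 2 of the 27 members and 12 of 27025 genes (0.0444%). In Herpud1 it lay at -52 and in Dnajb11 at 7, inside the transcript.
Herpud1 at -52: ATTGGgCCACG
Dnajb11 at 7: ATTGGcCCACG

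The bases CCACG alone, which both forms include, were found in 23 of 27 members (85.2%) and in 35.5% of all genes with a window. The element TGACGTGG, called UPRE, was in 0 of 27 (0.714% of genes). A palindromic glucocorticoid response element, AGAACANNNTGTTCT, was in 0 of 27 (0.0111% of genes), which says only that these letters are not in these windows. The whole window is given for Hspa5, whose product BiP is the main ER chaperone, and for Hsp90b1, with the ERSE matches in capitals. That of Fkbp11, the member with the largest dexamethasone ratio, is given for contrast, since it held none of the 5 motifs.
Hspa5, chr2:34771840-34772139, plus strand: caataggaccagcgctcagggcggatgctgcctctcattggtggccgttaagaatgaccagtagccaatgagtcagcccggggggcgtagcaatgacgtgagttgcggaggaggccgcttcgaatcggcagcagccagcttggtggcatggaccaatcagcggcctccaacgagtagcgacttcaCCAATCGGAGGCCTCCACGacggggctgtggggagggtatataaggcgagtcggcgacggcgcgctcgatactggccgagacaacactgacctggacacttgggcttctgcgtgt
Hsp90b1, chr10:86705395-86705694, minus strand: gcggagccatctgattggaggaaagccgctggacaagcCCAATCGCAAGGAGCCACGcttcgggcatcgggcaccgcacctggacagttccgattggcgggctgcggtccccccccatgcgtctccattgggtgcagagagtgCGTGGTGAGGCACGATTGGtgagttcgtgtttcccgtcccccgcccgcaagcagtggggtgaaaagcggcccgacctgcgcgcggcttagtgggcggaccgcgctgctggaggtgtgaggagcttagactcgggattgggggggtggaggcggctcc
Fkbp11, chr15:98728149-98728448, minus strand: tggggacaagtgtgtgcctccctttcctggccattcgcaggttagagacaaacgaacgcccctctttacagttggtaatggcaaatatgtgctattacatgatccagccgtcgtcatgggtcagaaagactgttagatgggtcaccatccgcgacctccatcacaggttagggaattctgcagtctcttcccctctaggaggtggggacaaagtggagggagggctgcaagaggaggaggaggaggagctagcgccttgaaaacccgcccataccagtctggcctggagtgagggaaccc

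A further Fkbp11 window, at a start inside the gene, held CCACG and no ERSE. Each value below is the plate's summed count of a gene as CPM, scaled by the trimmed mean of M values (TMM) across plates. Per kilobase (kb) of merged exons in the GENCODE annotation of GRCm38, the members' mean level over the 6 plates ran from 2.59 to 334 CPM per kb. The 4 highest were Canx, a membrane chaperone of glycoproteins, at 334 CPM per kb, P4hb, a protein disulfide isomerase, at 262, Hspa5 at 238 and Pdia3, another disulfide isomerase, at 199. The lowest were the sensor Ern1 at 2.59 CPM per kb, the mannosidase-like degradation factor Edem1 at 3.72 and the proline isomerase Fkbp11 at 5.86. Xbp1, the transcription factor downstream of that sensor, was at 37.5 CPM per kb.

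Canx measured 2059, 1392 and 1511 CPM over days 1 to 3 without the drug, against 1535, 1575 and 1331 CPM with it. P4hb stood at 926, 615 and 561 CPM in the control plates, compared with 784, 1016 and 588 CPM in the dexamethasone plates. Hspa5 measured 1244, 897 and 1155 CPM without the drug, against 975.1, 1008 and 751 CPM with it. Control day 1 was the highest plate for Canx and Hspa5 and dexamethasone day 2 for P4hb, and control and dexamethasone levels overlapped in all of them. Pdia3 measured 695, 465 and 549 CPM without the drug, against 683, 693 and 655 CPM with it, so that control days 2 and 3 were its lowest plates.

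The comparison of dexamethasone with control asked how a glucocorticoid alters these cells. Fkbp11, which encodes a proline isomerase of the ER known from secretory cells (chr15:98724366-98728198, minus strand), had the largest difference. Without the drug its level was 13.1 CPM after 1 day, 2.21 after 2 and 1.53 after 3. The dexamethasone plates of the same days measured 54.2, 16.2 and 7.95 CPM. Each dexamethasone plate was above the control plate of its day, by 4.12, 7.34 and 5.21 times, although dexamethasone day 3 was below control day 1. Exact Poisson 95% intervals, which cover counting error only, ran from 12.4 to 13.9 CPM on control day 1 and from 52.9 to 55.5 CPM on dexamethasone day 1. Those of control day 3 (1.31 to 1.77) and dexamethasone day 3 (7.41 to 8.52) did not overlap either.

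The additive fit over the 6 plates put the Fkbp11 difference at 2.43 on the log2 scale (SE 0.28). It did not pass the threshold, with an adjusted p of 0.457 by edgeR's quasi-likelihood test over 20040 genes. None of the 34 members passed, nor did any of the 20040 genes (0%), and 2070 genes had an unadjusted p under 0.05. DESeq2 on the same sums, over 16543 genes, called 3 members, all higher with dexamethasone, among 1279 genes (7.73%). They were Fkbp11 (log2 difference 2.41, adjusted p = 5.3e-12), Ssr4 (0.48, adjusted p = 0.021) and Sec61b (0.61, adjusted p = 0.033). With edgeR on genes of at least 50 CPM alone, 0 of 28 members were called (0.878% of 4326 genes), and Fkbp11 was too low to be tested.

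**Figure D1:**
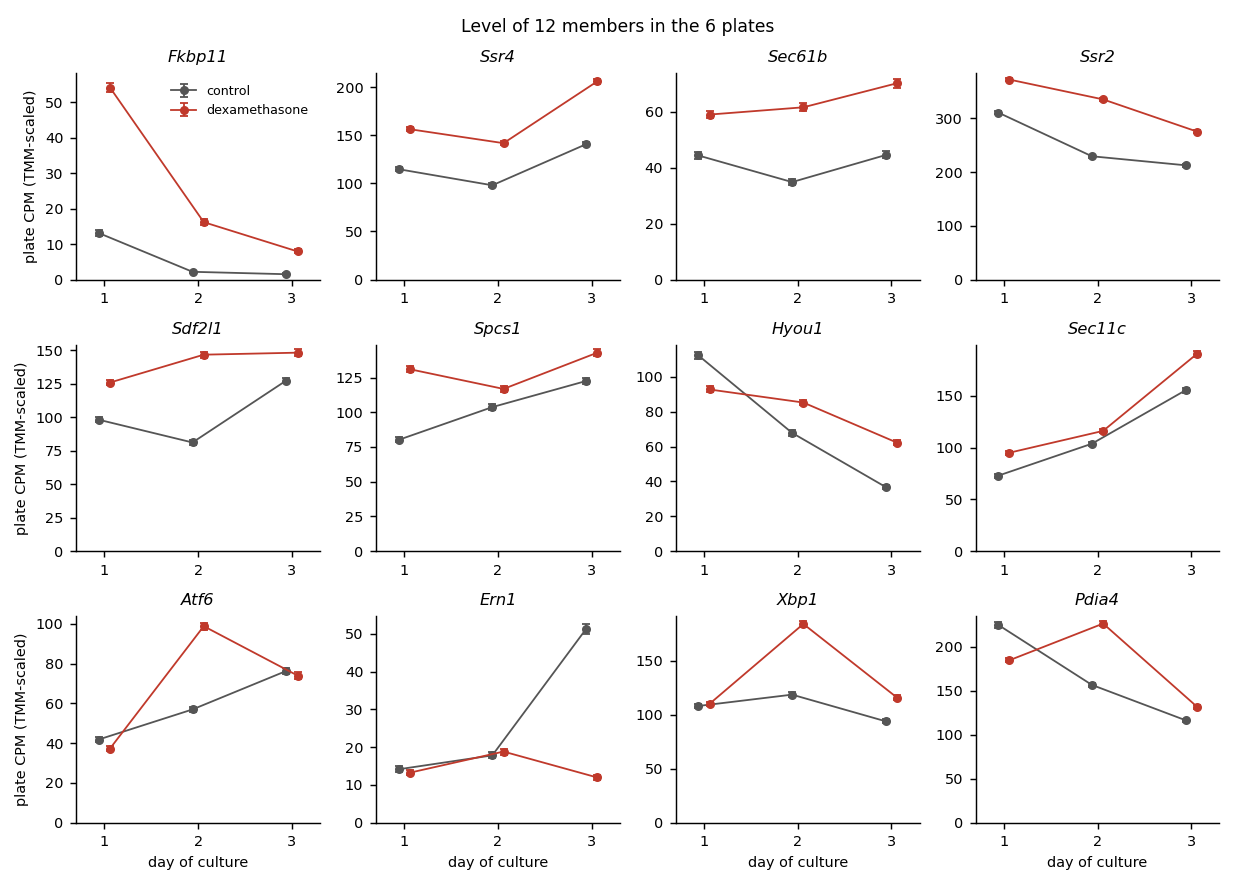
Level of 12 members in each plate, in TMM-scaled CPM on the vertical axis, by day of culture on the horizontal axis, for control (grey) and dexamethasone (red); bars are exact Poisson 95% intervals of counting error. Fkbp11, Ssr4, Sec61b, Ssr2, Sdf2l1 and Spcs1 lie higher with dexamethasone on each day, and Ern1 stands out at 51.3 CPM on control day 3.

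Several small subunits of the entry machinery were also above control on each day. Ssr4, the delta subunit of the translocon-associated protein complex that assists entry (chrX:73787028-73790830, plus strand), stood at 115, 98.0 and 141 CPM in the control plates, compared with 156, 142 and 206 CPM in the dexamethasone plates. Sec61b, the beta subunit of the Sec61 channel (chr4:47474658-47483242, plus strand), measured 44.3, 34.8 and 44.5 CPM without the drug, against 58.9, 61.5 and 70.1 CPM with it. For both genes all 3 dexamethasone plates were above all 3 control plates. Ssr2, the beta subunit of the same complex as Ssr4, stood at 311, 230 and 213 CPM in the control plates, compared with 372, 335 and 276 CPM in the dexamethasone plates. Its control day 1 level was above that of dexamethasone day 3, so the groups overlapped.

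Sdf2l1, a partner of BiP and of its cochaperones, measured 98.1, 81.1 and 127 CPM without the drug, against 126, 147 and 148 CPM with it. Spcs1, a small subunit of the signal peptidase, stood at 80.1, 104 and 123 CPM in the control plates, compared with 131, 117 and 143 CPM in the dexamethasone plates. The groups of both overlapped, through control day 3. The fitted differences were 0.51 (SE 0.10) for Ssr4, 0.63 (SE 0.15) for Sec61b, 0.39 (SE 0.11) for Ssr2, 0.48 (SE 0.17) for Sdf2l1 and 0.37 (SE 0.16) for Spcs1. Their adjusted p-values by edgeR's quasi-likelihood test were 0.457 for the first 3, 0.473 for Sdf2l1 and 0.508 for Spcs1. Exons of Ssr2 and Spcs1 overlap exons of other genes on the opposite strand, over 239 and 252 bases, and the strand setting of the counting is not given in the sources used here.

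At an unadjusted p under 0.05, 5 of 34 members were higher with dexamethasone (14.7%, against 4.51% of all genes) and 0 were lower (5.82% of all genes). The 5 were Fkbp11, Sdf2l1, Sec61b, Ssr2 and Ssr4. Without the control day 2 plate, or without the dexamethasone day 2 plate, only Fkbp11 of these remained under 0.05, and without control day 3 only Fkbp11 and Ssr4. Without dexamethasone day 3, the 3 under 0.05 were Fkbp11, Sdf2l1 and Ssr4. Over all genes, the split was 903 higher and 1167 lower, which became 1159 and 952 with scaling by library size alone and 1571 and 999 with limma on mean CPM over cells. The members numbered 7 higher and 0 lower with the former and 9 and 0 with the latter. Members above control on each of the 3 days numbered 11 of 34 (32.4%, against 19.1% of all genes). Besides the 6 described they were Creld2, Fkbp2, Manf, Sec11c and Xbp1. Some of these ratios were close to 0. Fkbp2 had log2 ratios of 0.049, 0.007 and 0.053 by day, and on day 1 Xbp1 had 0.026 and Manf 0.069. Of the 28 members of at least 50 CPM, 9 were above control on each day, against 19% of such genes. Members below control on each day were the BiP cochaperone Dnajc3 and the ubiquitin-like degradation factor Herpud1, 2 of 34 against 16.2% of all genes.

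The number of members above control differed between days. On day 1, 13 of 34 were above control (49.3% of all genes), on day 2, 32 of 34 (51.9%), and on day 3, 21 of 34 (51.5%). Their median log2 ratio was -0.10, 0.44 and 0.15, beside 0.00, 0.04 and 0.03 over all genes. The counts above control varied with how the ratio was taken (prior count, scaling, marker cells left out, or cell medians). They ran from 13 to 18 on day 1, 28 to 34 on day 2 and 21 to 27 on day 3. On day 2 only Herpud1 and Dnajc3 were below control, at -0.47 and -0.14. The control day 2 plate had no cell with the neutrophil and monocyte markers, of which 3 of 12 had any count, and a median of 7556 genes per cell against 8829 with dexamethasone. Its red cell markers summed to 18920 CPM against 3915. The part of these features in the day 2 values was not tested. Over the 3 days the fitted difference had a median of 0.19 over members and 0.07 over all genes, with 25 of 34 members and 11038 of 20040 genes above 0. Without either day 2 plate the median over members was 0.02.

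Ratios of at least 1 on the log2 scale were seen for Fkbp11 alone on day 1 (13.7% of all genes) and day 2 (20%), and for Fkbp11 and the ubiquitin ligase Syvn1 on day 3 (21.6%). Ratios of -1 or less were seen for 0 members on day 1 (11.7%) and day 2 (15%), and for Ern1 and the BiP cochaperone Dnajb9 on day 3 (13.7%). All other members stayed within -1 and 1 on all 3 days. By role, the median fitted difference was 0.28 for the 10 genes of entry and signal peptide cleavage, 0.23 for the 6 folding enzymes, 0.11 for the 11 chaperones, 0.065 for the 4 degradation genes and 0.19 for the 3 sensors and regulator.

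**Figure D2:**
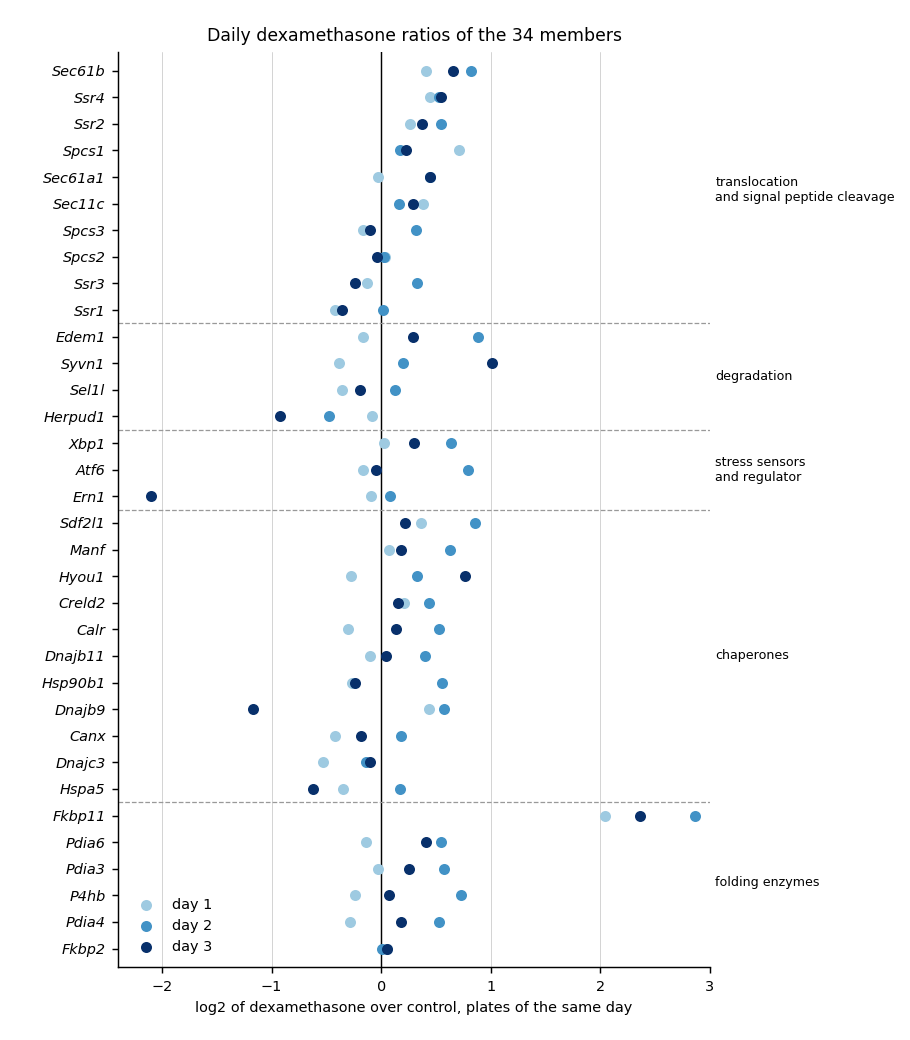
Log2 ratio of dexamethasone to control on the horizontal axis for each of the 34 members, grouped by role on the vertical axis, with 1 point per day; each ratio compares 2 plates. Most points of day 2 lie to the right of 0, the 3 points of Fkbp11 lie between 2.04 and 2.87, and Ern1 lies at -2.10 on day 3.

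Ssr1, Hspa5 and Canx had ratios of both signs. Ssr1, the alpha subunit of the complex that holds Ssr4, was at -0.42, 0.02 and -0.36 on the log2 ratio scale by day. Hspa5 had -0.35, 0.17 and -0.62, and Canx -0.42, 0.18 and -0.18. Hspa5 and Canx hold an ERSE match. Over the 10 members with an ERSE or ERSE-II match the median log2 ratio was -0.28, 0.30 and -0.03 on days 1, 2 and 3, and over the 17 with a window and neither it was 0.03, 0.53 and 0.18. Across the 34 members, the fitted dexamethasone difference and merged exon length had a Spearman rho of -0.37, and across 4328 genes of at least 50 CPM a rho of -0.19. For the ratios of days 1, 2 and 3 this rho was -0.59, -0.32 and -0.21 across members and -0.35, -0.10 and -0.09 across those genes. The 6 members under 2 kb had a median difference of 0.38 and the other 28 of 0.13, beside 0.14 and -0.09 for the 472 shorter and 3856 longer of those genes. These 6 members were Sec61b, Ssr2, Sdf2l1, Spcs1, Creld2 and Fkbp2, and all were above control on each day. Fkbp2 was so by very little, with log2 ratios of 0.049, 0.007 and 0.053. The part of length in the members' differences was not tested.

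Among the sensors and their factor, Xbp1 measured 108, 119 and 93.8 CPM without the drug, against 110, 184 and 116 CPM with it. Atf6 stood at 41.8, 56.95 and 76.3 CPM in the control plates, compared with 37.3, 98.9 and 74.03 CPM in the dexamethasone plates. Both were highest on dexamethasone day 2, and their groups overlapped. Counts per gene do not show whether Xbp1 RNA was spliced by IRE1 or ATF6 was cleaved. Ern1 measured 14.1, 17.8 and 51.3 CPM without the drug, against 13.2, 18.8 and 11.9 CPM with it. Only control day 3 was high, and the other 5 plates lay within 11.9 and 18.8 CPM.

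The comparison of days asked how the members moved along the culture. The largest day 3 against day 1 difference was again that of Fkbp11, at -2.95 on the log2 scale (SE 0.35), with an adjusted p of 0.225 by edgeR's quasi-likelihood test. It was lower on day 3 in both treatments, with day 3 to day 1 log2 ratios of -3.11 without the drug and -2.77 with it. Hyou1, a nucleotide exchange factor for BiP, stood at 112, 67.9 and 36.7 CPM in the control plates, compared with 92.8, 85.3 and 62.3 CPM in the dexamethasone plates, a fitted -1.10 (SE 0.29, adjusted p = 0.266 by edgeR's quasi-likelihood test). Levels of Hyou1 were lowest on day 3 in both treatments.

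Pdia4, a disulfide isomerase, measured 225, 156 and 116 CPM without the drug, against 184, 226 and 132 CPM with it (fitted -0.73, SE 0.23, edgeR adjusted p = 0.308). Sec11c, a catalytic subunit of the signal peptidase, went the other way, from 72.9 through 104 to 156 CPM over the control plates and from 95.1 through 116 to 191 CPM over the dexamethasone plates (fitted 1.05, SE 0.14, edgeR adjusted p = 0.225). Both day 3 plates of Sec11c were above all 4 plates of days 1 and 2, and within each treatment its level was higher on each later day. Atf6 had a fitted 0.92 (SE 0.29, edgeR adjusted p = 0.307), and Ern1 a fitted 1.00 (SE 0.65, edgeR adjusted p = 0.537), which was -0.19 without the control day 3 plate.

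None of the 34 members, and none of the 20040 genes, passed edgeR's quasi-likelihood test for day 3 (0%) or day 2 (0%), each set against day 1, while 2907 and 2446 genes had an unadjusted p under 0.05. At an unadjusted p under 0.05, 8 of 34 members were lower on day 3 (23.5%, against 7.47% of all genes). These were the chaperones Creld2, Dnajc3 and Hyou1, the folding enzymes Fkbp11, Pdia4 and Pdia6, and the entry genes Sec61a1 and Ssr2. Higher on day 3 were 2 of 34, Atf6 and Sec11c (7.04% of all genes). The 8 became 2 without either the control day 1 or the control day 3 plate and 3 without the dexamethasone day 3 plate. For day 2 against day 1 the same p held for Atf6 and Sec11c, higher (6.16% of all genes), and for Fkbp11, lower (6.04%).

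DESeq2 called 6 members for day 3 against day 1, among 12.8% of 16543 genes. They were Fkbp11 (adjusted p = 2.5e-12), Hyou1 (0.0091), Creld2 and Sec61a1, all lower, and Sec11c (3.8e-06) and Atf6 (0.038), both higher. For day 2 against day 1 DESeq2 called Fkbp11, lower, and Atf6, higher, with 9.6% of 16154 genes called. With edgeR on genes of at least 50 CPM, Sec11c was the 1 member of 28 called for day 3 (log2 difference 1.10, adjusted p = 0.018, 12.6% of genes called), and 0 of 28 were called for day 2 (5.39%). Over the members the median day 3 against day 1 difference was -0.20, beside -0.03 over all genes. By role it was -0.59 for the folding enzymes, -0.33 for the chaperones, -0.13 for entry and signal peptide cleavage, 0.12 for degradation and 0.92 for the sensors and regulator.

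Single cells showed what the sums were made of. To compare shares of cells with a count at 1 depth, cells were thinned to 500000 counts, which left out 32 of 563 cells (2 to 13 per plate). Fkbp11 had a count in 44 of 87, 10 of 83 and 3 of 91 thinned control cells over the 3 days, a share of 50.6% on day 1 and 3.3% on day 3. With dexamethasone it had a count in 84 of 92, 47 of 89 and 38 of 89 cells, a share of 91.3%, 52.8% and 42.7%. Exact Clopper-Pearson 95% intervals were 39.6% to 61.5% on control day 1 and 83.6% to 96.2% on dexamethasone day 1, and 0.685% to 9.33% on control day 3 and 32.3% to 53.6% on dexamethasone day 3. In all cells unthinned the shares ran from 48.9% on day 1 to 4.3% on day 3 without the drug and from 93.6% to 41.5% with it. More cells had a count with dexamethasone on each day, and the median cell on dexamethasone day 1 held 46.5 CPM against 0 on each control day.

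The control day 3 counts of Fkbp11 came from 4 of 93 cells. Mean level was 7.90 CPM over the 9 cells with neutrophil and monocyte markers on that plate and 0.305 CPM over the other 84. On dexamethasone day 1 such cells were lower, with a mean of 19.6 CPM over 10 cells against 60.2 CPM over the rest. Without marker cells the day 3 log2 ratio was 4.43 in place of 2.37, and as a difference of cell medians it was 0, since the median cell held 0 CPM on both day 3 plates.

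A few cells held most of the Ern1 counts of control day 3. There, 5 of 93 cells held 47.3% of Ern1 counts, and cells at 100 CPM or more numbered 17 (18.3%, exact 95% upper bound 27.6%). These cells held 93.5% of the plate's Ern1 counts. The same level was reached in 3 and 6 cells on control days 1 and 2 and in 2, 4 and 0 cells with dexamethasone. The 0 of 94 allows a share of up to 3.85% by the exact interval. The 17 cells had a median of 5531 genes with a count, against 7126 in the other cells of the plate, and a median of 965016 counts against 1262997. Their median red cell index, a mean level of red cell genes defined below, was 12.11, against 9.94 in the other cells. Of the 17, 4 had neutrophil and monocyte markers, and the mean Ern1 level was 157 CPM in the plate's 9 marker cells and 56.7 CPM in the rest. The part of these features in the Ern1 value was not tested. Dnajb9 showed the same form, with 14 control day 3 cells at 100 CPM or more holding 74.9% of its counts, against 0 to 4 cells on each other plate. The level of 100 CPM was chosen after the values were seen.

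**Figure D3:**
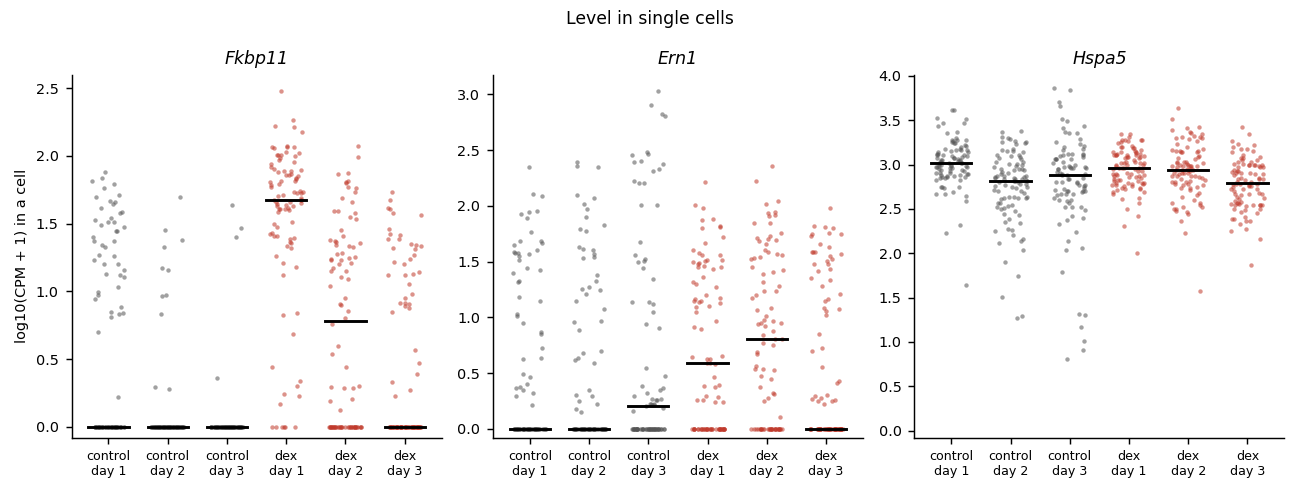
Level of Fkbp11, Ern1 and Hspa5 in each kept cell (1 point per cell, horizontally jittered) by plate, as log10(CPM + 1) on the vertical axis, with control in grey, dexamethasone in red and the median as a black line. Most Fkbp11 points lie above 0 on dexamethasone day 1, 17 Ern1 points are at 100 CPM or more on control day 3 against 0 to 6 on each other plate, and Hspa5 is above 0 in every cell.

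Abundant members were found in nearly every cell: in thinned cells Canx had a count in 100% of cells on all 6 plates, and Hspa5 in 98.9% to 100%. The next 3 members, picked after their values were seen, had a count in fewer control cells on later days. Hyou1 had a count in 93.1%, 66.3% and 41.8% of control cells by day, against 94.6%, 92.1% and 83.1% of dexamethasone cells. Pdia4 was at 97.7%, 84.3% and 60.4% in control and 98.9%, 97.8% and 87.6% with dexamethasone. Dnajc3 was at 96.6%, 80.7% and 53.8% in control and 95.7%, 94.4% and 84.3% with dexamethasone, although its plate level was below control on each day, so no order between treatments is read from its shares. For these 3 genes the control day 3 plate had the lowest share.

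The 34 members together took about 1% of a cell's counts. The median cell gave them 1.07%, 0.653% and 0.735% in the control plates by day, compared with 0.99%, 1.08% and 0.829% in the dexamethasone plates. On control days 2 and 3 the cells also differed more among themselves: the level at the 90th percentile was 3.06 and 2.90 times that at the 10th, against 1.75 on control day 1 and 1.59, 2.09 and 1.88 with dexamethasone. For the folding enzymes this ratio was 7.15 and 19.6 on control days 2 and 3, and at least 2.06 but at most 2.4 on the other plates.

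A red cell index was taken as the mean log2(CPM + 1) of 9 globin and red cell genes, and its plate median was 4, 8.93 and 10.34 over the control days and 3.14, 4.78 and 7.3 over the dexamethasone days. Within plates, the percent of counts on the members had a Spearman rho with the index of -0.30, -0.86 and -0.74 over the control days and -0.16, -0.13 and -0.56 over the dexamethasone days. Cells of a plate share library preparation, the index genes take counts from all others, and rho of the same percent with total counts ran from 0.12 through 0.61 to 0.50 over the control days and from 0.13 through -0.14 to 0.29 over the dexamethasone days. By gene, 32 of 34 members had a negative rho with the index averaged over plates, beside 69.9% of genes of at least 50 CPM. The most negative were Pdia6 (-0.45), P4hb (-0.44), Hsp90b1 (-0.43) and Pdia3 (-0.41), and those above 0 were Atf6 (0.05) and Spcs1 (0.02).

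**Figure D4:**
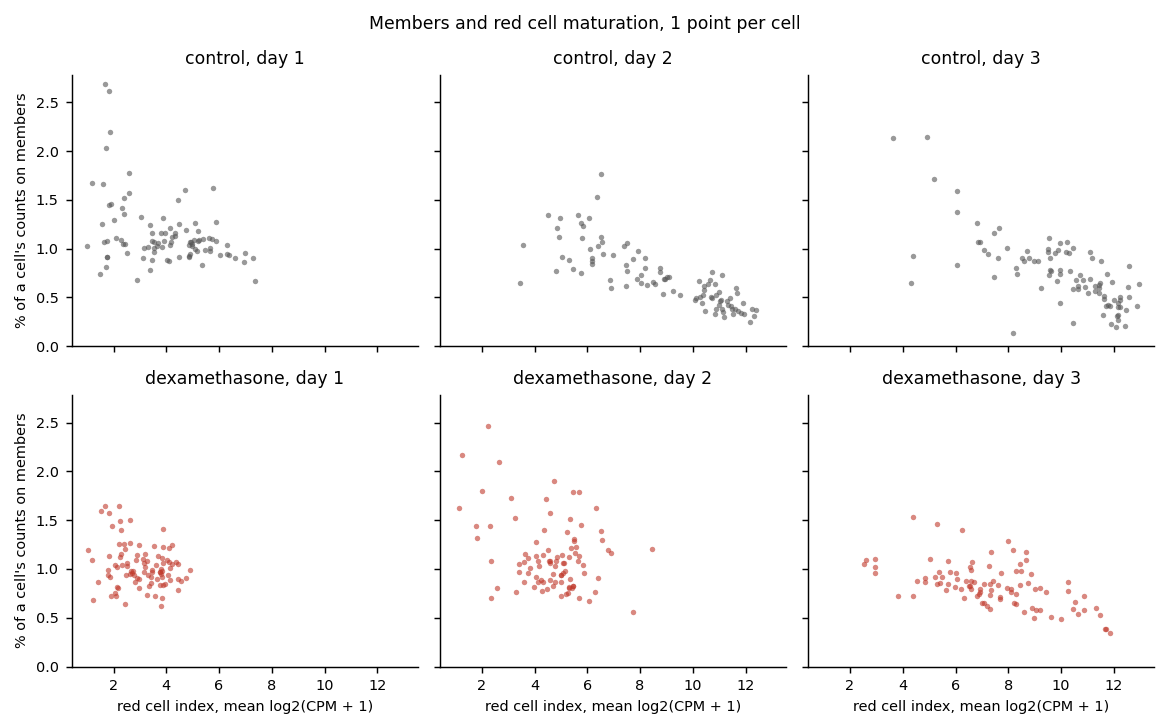
Percent of a cell's counts on the 34 members (vertical axis) against the red cell index, a mean of log2(CPM + 1) over 9 genes (horizontal axis), with 1 point per kept cell and 1 panel per plate. The percent is lower in cells of higher index on control days 2 and 3 and dexamethasone day 3, and day 1 cells and dexamethasone day 2 cells hold few high index values.

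Since the dexamethasone plates had a lower index than the control plates of their day, levels were also read within the same range of the index, with ranges chosen after the values were seen. In cells with an index from 6 to 9, the median percent on the members was 0.841 over 34 cells on control day 2, 0.944 over 21 cells on control day 3 and 0.83 over 52 cells on dexamethasone day 3, while the 10 such cells of dexamethasone day 2 had 1.18. In cells from 9 to 13 it was 0.471 over 47 cells, 0.619 over 66 cells and 0.584 over 19 cells of the same plates. From 4 to 6, control days 1 and 2 had 1.08 (38 cells) and 1.12 (13 cells), and dexamethasone days 1, 2 and 3 had 1.01 (15 cells), 1.06 (59 cells) and 0.904 (17 cells). From 2 to 4, control day 1 had 1.08 (31 cells), and dexamethasone days 1 and 2 had 0.98 (66 cells) and 1.06 (18 cells). The dexamethasone values were thus below the control values in the ranges under 6, and of those above 6 only the 10 cells of day 2 were above both control values. Fkbp11, in the range from 6 to 9, was at 2.63 and 1.26 CPM in control cells of days 2 and 3, compared with 7.05 CPM on dexamethasone day 3. The 10 cells of dexamethasone day 2 in that range were at 1.65 CPM, between the control values. From 4 to 6, Fkbp11 stood at 11 and 5.43 CPM in control cells of days 1 and 2, against 50.5, 14.6 and 16.2 CPM on the dexamethasone plates of days 1, 2 and 3. From 9 to 13 it was near 0 on all plates, at 0.0224 and 0 CPM in the control plates, and 0.206 CPM with dexamethasone.

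Sec61b was higher with dexamethasone within both ranges above 6, and Ssr4 was above both control values there on dexamethasone day 3 only. From 9 to 13, Sec61b was at 27.2 and 36.3 CPM in control cells of days 2 and 3, compared with 52.6 CPM on dexamethasone day 3, and Ssr4 at 66.6, 115 and 189 CPM on the same plates. From 6 to 9, Sec61b was at 35.4 and 45.2 CPM in the control plates, and 65.9 CPM on dexamethasone day 3, and Ssr4 at 114, 156 and 205 CPM. Hspa5 from 9 to 13 was at 561 and 927 CPM in the control plates, and 503 CPM on dexamethasone day 3. From 6 to 9 its control values of 924 and 1130 CPM lay between those of dexamethasone day 3, at 758 CPM, and day 2, at 1380 CPM. In the 10 cells of dexamethasone day 2 from 6 to 9, Sec61b was at 92.6 CPM and Ssr4 at 144 CPM, the latter below control day 3. These are sums over cells of single plates and carry no test.

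Members also varied together from cell to cell. Averaged over the 6 plates, the Spearman rho between 2 members had a median of 0.13 over 561 pairs, and 0.19 over the 378 pairs of members of at least 50 CPM, beside 0.03 over all pairs of 4329 such genes. The highest pair was Hsp90b1, the ER form of HSP90, with Calr, the soluble lectin chaperone, at 0.51 (0.46 to 0.56 by plate). Pdia3 with Pdia6 followed at 0.46 (0.34 to 0.52), and P4hb with Sec61a1, the pore of the Sec61 channel, at 0.46 (0.20 to 0.68). Among Hspa5, Hsp90b1, Calr, P4hb, Pdia3, Pdia4 and Pdia6, picked after the values were seen, the median of 21 pairs was 0.40. No rho between members was adjusted for the red cell index. Pdia6, P4hb, Hsp90b1 and Pdia3, the members most negative with that index, are all among the genes so picked. The part of the index in the rho between members was not tested. Xbp1 went highest with Hspa5, at 0.38 (0.24 to 0.52). Fkbp11, Ern1, Atf6, Dnajb9, Spcs1, Sec11c and Syvn1 had a mean rho of 0.07 or less with the other members. Sparse counts limit the rho of scarce members, such as Fkbp11, Dnajb9 and Ern1. Members with an ERSE or ERSE-II match had a median rho of 0.21 over 45 pairs and those with neither 0.10 over 136 pairs, at median levels of 264 and 121 CPM.

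**Figure D5:**
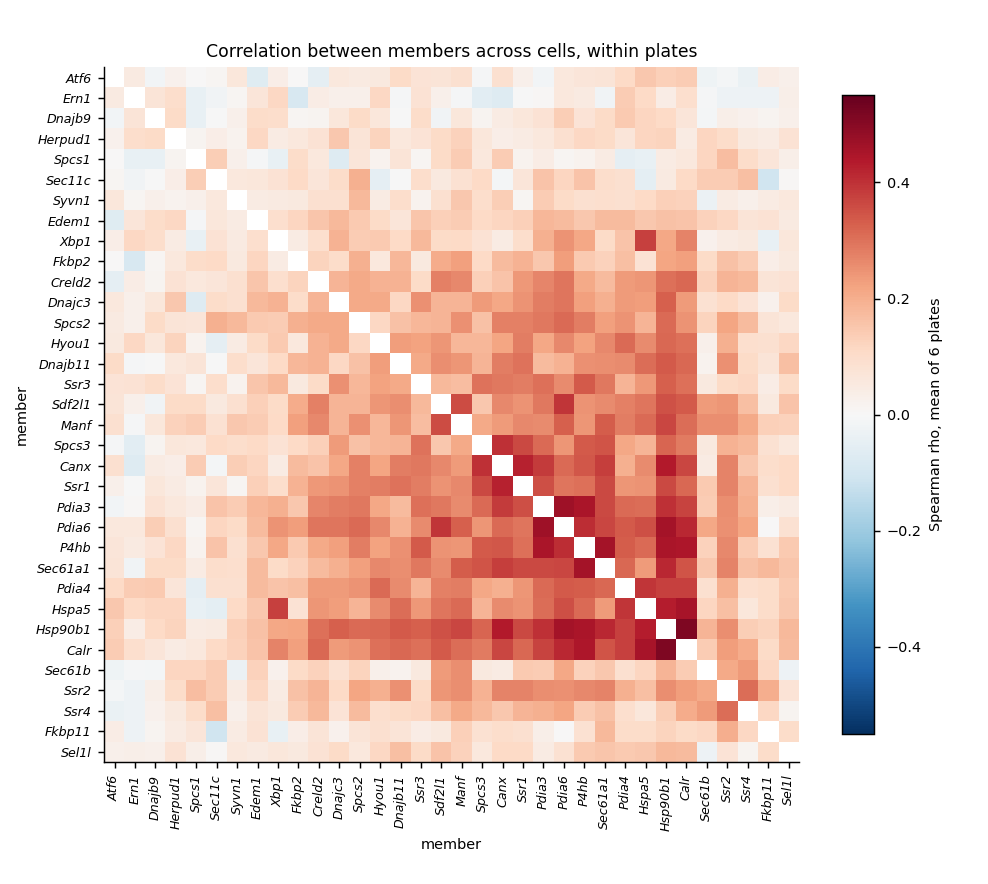
Spearman rho between each pair of the 34 members across cells, computed within plates and averaged over the 6 plates (colour scale), with members on both axes ordered by average linkage clustering of the same values. A block of chaperones and disulfide isomerases around Hsp90b1 and Calr (0.51) is darkest, and Ern1, Atf6, Dnajb9 and Spcs1 are pale.

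Outside the members, 4301 genes of at least 50 CPM were ranked by rho with the members' mean z-score within plates, averaged over 6 plates. Outside the pathway lists the 10 highest were Slc38a1 (0.44), Ywhaz (0.43), Hmga1 (0.42), Lman2 (0.41), Psat1 (0.39), Ldha (0.39), Gorasp2 (0.38), Tagln2 (0.37), Sypl (0.37) and Flna (0.37). Lman2 is a lectin of the secretory path and Gorasp2 a Golgi stacking protein. The 2 highest of all were on the lists: Rpn1, a subunit of the enzyme that attaches N-linked sugars (0.52), and Surf4, a cargo receptor for export from the ER (0.47). The plates gave wide ranges, such as 0.29 to 0.77 for Rpn1 and 0.04 to 0.83 for Ldha. These rho values were not adjusted for the red cell index either.

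The other genes of the pathway were taken from 7 lists, of which 118 of 120 genes passed the filter on low counts. By edgeR's quasi-likelihood test 0 of 118 were called in any comparison, and for dexamethasone 7 of 118 were higher and 20 lower at an unadjusted p under 0.05, beside 4.51% and 5.82% of all genes. Of the 20 lower genes, 9 were on the list named for the arm of PERK and the factor ATF4. It holds 14 genes and had none of the higher ones. That list had a median difference of -0.88 with dexamethasone and 0.83 on day 3 against day 1, beside 0.07 and -0.03 over all genes, and 11 of its 14 genes were below control on each day, beside 16.2% of all genes. The same list had summed levels of 2566, 5317 and 5680 CPM in the control plates, and 2199, 3080 and 2728 CPM with dexamethasone. Eif2ak3, the gene of PERK itself, went the other way and was the only gene of the list above control on each day. Its levels were 4.12, 5.574 and 6.466 CPM without the drug, against 6.041, 12.01 and 7.469 CPM with it. Whether PERK or any other kinase acted on the lower genes was not tested.

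Trib3, a pseudokinase, stood at 11.4, 349 and 515 CPM in the control plates, compared with 6.47, 47.2 and 42.5 CPM in the dexamethasone plates (fitted -2.48, SE 0.64, edgeR adjusted p = 0.457). Chac1, a glutathione-degrading enzyme, measured 5.96, 55.5 and 30.8 CPM without the drug, against 2.88, 12.1 and 8.88 CPM with it. Slc7a11, the cystine transporter, stood at 3.38, 41.2 and 46 CPM in the control plates, compared with 1.77, 17.01 and 5.00 CPM in the dexamethasone plates. Ddit3, which encodes the factor CHOP, measured 23.6, 125 and 216 CPM without the drug, against 15.6, 25.5 and 45.6 CPM with it. All 4 were lowest on dexamethasone day 1, and control days 2 and 3 were their highest plates.

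The other genes named by the rule were scarce and above control on each day. Ero1lb, an ER oxidase, stood at 2.49, 2.28 and 2.43 CPM in the control plates, compared with 3.93, 5.61 and 4.22 CPM in the dexamethasone plates. Kdelr3, a receptor that returns ER proteins from the Golgi, measured 0.0782, 0.417 and 1.14 CPM without the drug, against 0.241, 0.608 and 1.67 CPM with it. The 25 further folding and oxidation genes had a median difference of 0.18 with dexamethasone, the 12 genes of sugar transfer 0.14, the 22 of ER to Golgi transport 0.05, the 12 of ATF6 processing -0.075, the 16 of signal recognition and entry -0.08, and the 17 of degradation -0.18.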

How the data were processed

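The members, role groups and pathway lists were chosen with earlier results of these data known. Whole-number counts per gene and well were used as deposited. Per the submitters' processing notes, the authors used STAR 2.4, featureCounts and GRCm38. Not given in the sources used here are the strand setting, the handling of multiply mapped reads and any molecular identifiers. A count is therefore taken as a read, and intervals cover counting error only. Of 576 value columns 1 matched no label and was not used. An empty header cell with no values under it was left out before names were matched. Exons of 11 members overlap exons of another gene.

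Wells were kept with at least 50000 counts, 1500 genes and at most 20% mitochondrial counts. Kept cells held 66140 to 3757116 counts. No doublet caller was run. Counts were summed per plate and tested with edgeR 4.0.16 (quasi-likelihood, TMM, filterByExpr, 20040 genes, day and dexamethasone as additive terms, 2 residual degrees of freedom, Benjamini-Hochberg, threshold 0.05), after the script was tested on simulated data. SE is the size of the log2 difference over the square root of F. No group had a replicate plate, so the spread tested is the departure of the plate sums from the additive terms. That departure may be technical, and it also holds any dexamethasone effect that differs between days. The p-values and SE therefore do not measure variation between replicate plates. Daily log2 ratios used a prior count of 2 and have no test. All 34 members passed the filter.

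Values in every plate are given for the 6 members whose smallest daily ratio, of the same sign on 3 days, was largest, the 6 with the largest day 3 against day 1 difference, the 4 highest per kb, and Xbp1, Ern1 and Atf6. From the pathway lists the 6 genes ranked highest in the same way, and outside them the 10 with the highest rho, are named. Others were named after their values were seen. Alternatives used DESeq2 1.42.0, limma 3.58.1, other scalings, filters and cells, and each plate left out.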

Additional observations from a re-analysis of the deposited data

Results flagged for a closer look

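For 5 members the dexamethasone log2 ratio was above 0 on 1 day and below 0 on another, with at least 1 between them. The difference between days was not tested, since each ratio rests on 2 plates. Ern1 had 0.08 on day 2 and -2.10 on day 3, a difference of 2.18. Dnajb9 had 0.57 on day 2 and -1.17 on day 3, a difference of 1.74. Syvn1 had 1.01 on day 3 and -0.38 on day 1, a difference of 1.39. Edem1 had 0.89 on day 2 and -0.17 on day 1, a difference of 1.06. Hyou1 had 0.76 on day 3 and -0.28 on day 1, a difference of 1.04. Among all 20040 genes 40.6% met the same criterion. Only 4329 of these genes reached 50 CPM, against 28 of the 34 members. No share was taken over genes of a like level, so the 5 of 34 is not read against that background. As differences of cell medians of log2(CPM + 1), the day 3 ratio of Ern1 was -0.68 and that of Hyou1 was 4.97. On control day 3 the median cell was near the floor, at 0.606 CPM for Ern1 and 0.656 CPM for Hyou1. On dexamethasone day 3 it held 0 CPM and 50.9 CPM. These differences are therefore not read as sizes.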

How the results depend on the processing

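No paired analysis was possible because each day and treatment is 1 plate and the shared replicate numbers are wells of a plate. With edgeR, 0 members were called for dexamethasone and for day 2 in every alternative run with it. DESeq2 called 3 members for dexamethasone, 6 for day 3 and 2 for day 2, and edgeR on genes of at least 50 CPM called 1 for day 3. Over all genes edgeR called 0 in each comparison, DESeq2 1279, 2112 and 1550 for dexamethasone, day 3 and day 2, and edgeR at 50 CPM or more 38, 545 and 233. The members' median dexamethasone difference, 0.19, was 0.02 without the control day 2 plate and 0.02 without the dexamethasone day 2 plate. It ran from 0.02 to 0.31 over plates left out, and was 0.36 with limma on mean CPM. The median for day 2, -0.12, ran from -0.32, without the dexamethasone day 2 plate, to 0.04, the opposite sign, without the control day 2 plate. Signs changed as follows. The day 3 against day 1 difference of Ern1 was -0.19 without control day 3 (up to 1.91 over plates left out), and the day 3 dexamethasone ratio of Dnajb9 was 0.37 as a difference of cell medians. The Ern1 dexamethasone ratio of -0.09 on day 1 was 0.29 without marker cells and 1.95 as a difference of cell medians, and that of 0.08 on day 2 was -0.10 without marker cells. These cell medians were near the floor, where small levels give large log2 differences. For Ern1 on day 1 they were 0 CPM in control and 2.86 CPM with dexamethasone. For Dnajb9 on day 3 they were 0 and 0.336 CPM. The cause of the sign changes was not tested. With library size alone, genes at an unadjusted p under 0.05 for dexamethasone were 1159 higher and 952 lower, in place of 903 and 1167, and members 7 and 0. Members above control on each of 3 days numbered 10 to 15 over the ways of taking the ratio. Without the day 2 plates, an alternative chosen after seeing the data, 11 members were above control on both other days, against 27.8% of all genes. The planned comparison of protein ends was not run. A floor of 3 counts was at most 0.0335 CPM, below each member in each plate.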
